A study of Mus musculus with 5 samples.

Results

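Messenger RNA of 7 leukocyte adhesion genes, Selplg, Itgam, Itgal, Itga4, Itgb1, Itgb2 and Cd44, was measured in single cells of mouse bone marrow (BM) before and after cyclophosphamide (CTX), an alkylating chemotherapy drug. The members were taken by gene symbol and make up 7 of the 31053 genes in the count tables. Their unique molecular identifiers (UMIs, 1 per captured RNA molecule) were summed over whole libraries and over cell classes, and levels are given as CPM, the UMIs of a gene per 1000000 UMIs of those cells. Whole BM was taken from untreated (naive) mice and from mice given 150 mg/kg CTX in PBS into the peritoneum, on day 2 (D2 CTX) or day 7 (D7 CTX), with cells of 3 mice mixed in equal numbers in each library. The other 2 libraries held monocytes sorted as CD11b+Ly6Chi from BM of naive and of CTX mice, for which the labels give no day and the study's text gives day 7. Pooling of mice was not stated separately for the sorted libraries. The mice were BALB/c, 4 to 8 weeks old by the study's methods, the labels add only the genotype CD45+, and dead cells were removed from whole BM. Each condition was 1 library, so no difference between conditions could be set against the spread between mice, and no test was possible. Intervals are exact at 95% and cover counting error only. CD11b is the protein of Itgam, so cells in the sorted libraries were chosen on the product of a member gene.

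Integrins are pairs of an alpha and a beta subunit that hold leukocytes to other cells and to matrix. Itgam (CD11b) and Itgal (CD11a) encode alpha subunits that pair with the beta subunit of Itgb2 (CD18), giving Mac-1 and LFA-1, which bind ICAM molecules and, for Mac-1, complement fragments. Itga4 (CD49d) pairs with Itgb1 (CD29) to form VLA-4, which binds VCAM-1 on marrow stroma and holds progenitors in the BM, or with Itgb7. Selplg encodes PSGL-1, the main ligand of P-selectin on rolling leukocytes, and Cd44 encodes the hyaluronan receptor, which can also carry selectin-binding glycans.

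Itgam lies on the plus strand at chr7:128062640-128118491 and Itgal on the same strand at chr7:127296260-127335138 (GRCm38, GENCODE annotation). Itgb2 lies at chr10:77530252-77565708 (plus), Itga4 at chr2:79255426-79333123 (plus), Itgb1 at chr8:128685654-128733200 (plus), Selplg at chr5:113818536-113832644 (minus) and Cd44 at chr2:102811141-102901665 (minus). Reads were captured at the 3′ end, so splice forms of Cd44 and of the others were not resolved, and levels were compared for 1 gene across cells and not between genes. Promoter sequences from RefSeq (GRCm38.p6) matched 4 of the 7 members, Itgam, Itga4, Itgb1 and Cd44. The 250 bases before the start of Itgam (chr7:128062390-128062639, plus strand) and of Itgb1 (chr8:128685404-128685653, plus strand) are shown because Itgam stood higher and Itgb1 lower in mature neutrophil-like than in GMP-like cells, with matches to GAGGAA or its reverse complement TTCCTC, a core bound by the myeloid factor PU.1, in capitals.
Itgam: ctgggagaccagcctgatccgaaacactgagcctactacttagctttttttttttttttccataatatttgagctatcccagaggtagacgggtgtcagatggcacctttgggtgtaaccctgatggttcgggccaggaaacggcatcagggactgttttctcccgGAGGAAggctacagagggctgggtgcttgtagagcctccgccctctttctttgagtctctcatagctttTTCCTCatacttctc
Itgb1: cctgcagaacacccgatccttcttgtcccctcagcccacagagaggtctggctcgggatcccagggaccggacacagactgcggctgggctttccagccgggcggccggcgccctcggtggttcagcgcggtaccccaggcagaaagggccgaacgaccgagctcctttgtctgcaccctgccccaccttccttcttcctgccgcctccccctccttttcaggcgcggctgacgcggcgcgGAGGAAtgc
The Itgam window held the motif as GAGGAA starting 84 bases before the gene's start and as TTCCTC starting 15 bases before it, and the Itgb1 window held GAGGAA starting 9 bases before. Of the other members, Cd44 held TTCCTC at 243 and 220 bases before its start and Itga4 held no match in this window. A match on either strand was found in 23.3% of the 32851 promoter windows of this length, so a match in both windows did not separate the 2 genes. Their base composition differed, with 49.6% G and C in the Itgam window and 68.0% in that of Itgb1.

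After filtering, the 3 whole BM libraries held 6126 to 8290 cells and 33940059 to 67921924 UMIs, and the sorted libraries 1891 and 2564 cells and 22279758 and 28622354 UMIs. Libraries shared 1 to 15 cell barcodes per pair. Cells were assigned to classes by scores over fixed marker genes, none of which was a member, and each class is named "-like" after its markers. Classes cut from such scores are ranges: 7.46% to 8.40% of cells lay near a limit in whole BM, and 7.93% to 9.07% were left unassigned. Levels are given for classes of at least 50 cells, which were 14 before CTX, 14 at D2 and 8 at D7. No class of erythroid-, B-, T-, NK-, basophil/mast- or macrophage-like cells reached 50 cells in D7 CTX BM.

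In naive BM the 7 genes divided the cell classes between them, with Itgam, Itgb2 and Cd44 highest in neutrophil-like cells, Itga4 and Itgb1 highest in T-like cells, Itgal in NK-like cells and Selplg in plasmacytoid dendritic cell (pDC)-like cells. The intervals of neighbouring classes in these orders overlapped in 7 of 13 pairs for Selplg, 9 for Itgam and Itga4, 10 for Itgal and Itgb2, and 12 for Itgb1 and Cd44.

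Itgam stood at 651 CPM in immature neutrophil-like cells (634 to 669), 373 in mature neutrophil-like, 264 in pro/pre-neutrophil-like and 218 in monocyte-like cells of naive BM, and these 4 classes did not overlap. All other classes lay between 4.27 CPM in pro-B/large pre-B-like and 53.6 in basophil/mast-like cells. Its beta partner Itgb2 stood at 386 CPM in immature (373 to 400) and 372 in mature neutrophil-like cells (333 to 414), which overlapped, and at 207 CPM in monocyte-like, 194 in macrophage-like, 192 in pro/pre-neutrophil-like and 191 in NK-like cells. Erythroid-like cells, a lineage not known for integrins of this family, held 5.67 CPM of Itgb2 and 7.29 CPM of Itgam. These levels served as a background for the 2 genes at a median of 13831.5 UMIs per cell. Background at lower depths, such as the median of 734.5 UMIs in macrophage-like cells, was not measured. Itgal had another order from Itgam under the same beta partner: NK-like cells led with 218 CPM (185 to 256), above mature neutrophil-like cells with 154 (129 to 181) and T-like cells with 127, and erythroid-like cells held 2.11 CPM.

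Itga4 was highest in T-like (488 CPM, 420 to 565) and NK-like cells (434, 387 to 485), which overlapped, followed by erythroid-like (280), monocyte-like (249), B-like (206) and pDC-like cells (206). Immature and pro/pre-neutrophil-like cells held 24.2 and 24.1 CPM, and no UMI was found in the 50 macrophage-like cells, which allows up to 71.5 CPM. Itgb1 followed Itga4 at the top, with 332 CPM in T-like (276 to 396) and 305 in NK-like cells (265 to 348), and stood at 126 CPM in erythroid-like cells. The 2 subunits of VLA-4 ordered other classes differently. Of the 14 naive classes, small pre-B-like cells ranked 7 for Itga4 (181 CPM) and 12 for Itgb1 (29.0 CPM). Mature neutrophil-like cells ranked 9 for Itga4 (99.8 CPM) and last for Itgb1. Their 6.58 CPM was the lowest level of Itgb1 in any naive class of at least 50 cells. Nonclassical monocyte-like cells fell under the 50-cell limit, with 16 cells in naive BM and 25 at D2, and held 944 CPM of Itga4 (661 to 1307), 603 of Itgal and 603 of Itgb1 in naive BM and 650, 724 and 356 CPM at D2. Both sets lay above the naive level of the same gene in every class of at least 50 cells, with overlapping intervals for Itgb1 and, at D2, for Itga4.

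Selplg reached 610 CPM in pDC-like cells (560 to 664), 479 in NK-like (429 to 533), 430 in mature neutrophil-like (389 to 475), 383 in T-like and 296 in monocyte-like cells. The pDC-like level lay above all others, and NK-like and mature neutrophil-like cells overlapped. Erythroid-like cells were lowest with 10.2 CPM and pro/pre-neutrophil-like cells next with 23.3. Cd44 stood at 314 CPM in mature neutrophil-like cells (279 to 352), 184 in immature neutrophil-like, 176 in monocyte-like and 155 in macrophage-like cells (66.9 to 305), with the last interval wide because the 50 macrophage-like cells had a median of 734.5 UMIs. Cd44 had the narrowest spread of the 6 members with a UMI in every naive class, its highest level being 13.2 times the lowest, against 152 times for Itgam and 50.4 to 104 times for Selplg, Itgb1, Itgb2 and Itgal.

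**Figure D1:**
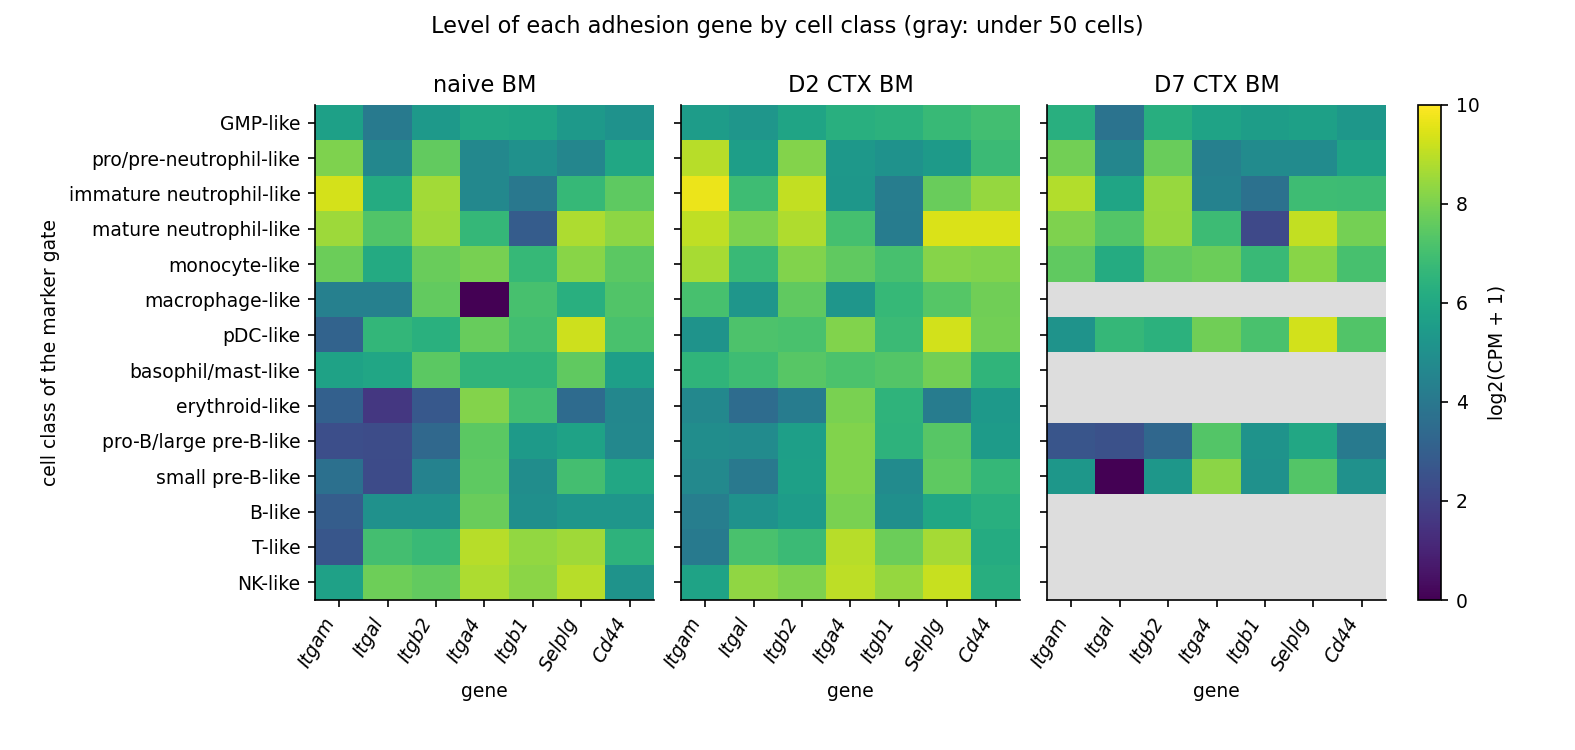
Each cell gives the level of 1 gene (columns) in 1 cell class (rows) of naive, D2 CTX or D7 CTX BM, as log2(CPM + 1) on a common color scale, with gray for classes under 50 cells. Itgam and Itgb2 are bright in the neutrophil-like rows (651 and 386 CPM in naive immature neutrophil-like cells) where Itgb1 is dark (15.2 CPM).

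Along the neutrophil lineage, from granulocyte-monocyte progenitor (GMP)-like cells through pro/pre-neutrophil-like and immature to mature neutrophil-like cells, each gene had its own course. Selplg went down and then up: naive BM held 39.96 CPM in GMP-like, 23.3 in pro/pre-neutrophil-like, 104 in immature and 430 in mature neutrophil-like cells. The step into pro/pre-neutrophil-like cells was -0.78 log2 units in naive BM (-1.18 to -0.36), -1.32 at D2 and -0.89 at D7, and mature over GMP-like cells stood at 3.43, 2.69 and 3.43 log2 units. All 3 libraries thus placed the lowest level of this P-selectin ligand in pro/pre-neutrophil-like cells and the highest in mature neutrophil-like cells.

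Itgb1 declined along the same classes in naive BM. It stood at 58.1, 32.3, 15.2 and 6.58 CPM over the 4 classes there, and mature over GMP-like cells was at -3.14 log2 units in naive BM (-4.62 to -1.97), -2.31 at D2 (-2.96 to -1.72) and -3.64 at D7 (-5.93 to -2.07). The level in mature cells rested on 6, 26 and 3 UMIs, and at D2 the interval of the last step covered 0 (-0.03, -0.69 to 0.58). Itga4 was low in the 2 middle classes, which did not differ beyond counting error in any of the 3 libraries, and higher in mature than in immature neutrophil-like cells by 2.04 log2 units in naive BM (1.67 to 2.41), 1.81 at D2 and 2.50 at D7.

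Itgam peaked in immature neutrophil-like cells and was lower in mature ones, with mature over immature at -0.80 log2 units in naive BM (-0.97 to -0.65), -0.68 at D2 (-0.79 to -0.57) and -0.78 at D7 (-0.98 to -0.58). For Itgb2 the same last step was -0.05 in naive BM (-0.22 to 0.11), -0.27 at D2 (-0.39 to -0.15) and -0.04 at D7 (-0.22 to 0.13). Itgal and Cd44 had their highest level in mature cells, with mature over immature at 1.13 and 0.77 log2 units in naive BM, 1.15 and 1.04 at D2, and 1.45 and 1.06 at D7. Itgam and Itgal, which share the Itgb2 chain, therefore moved in opposite directions over the last step in each of the 3 libraries.

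**Figure D2:**
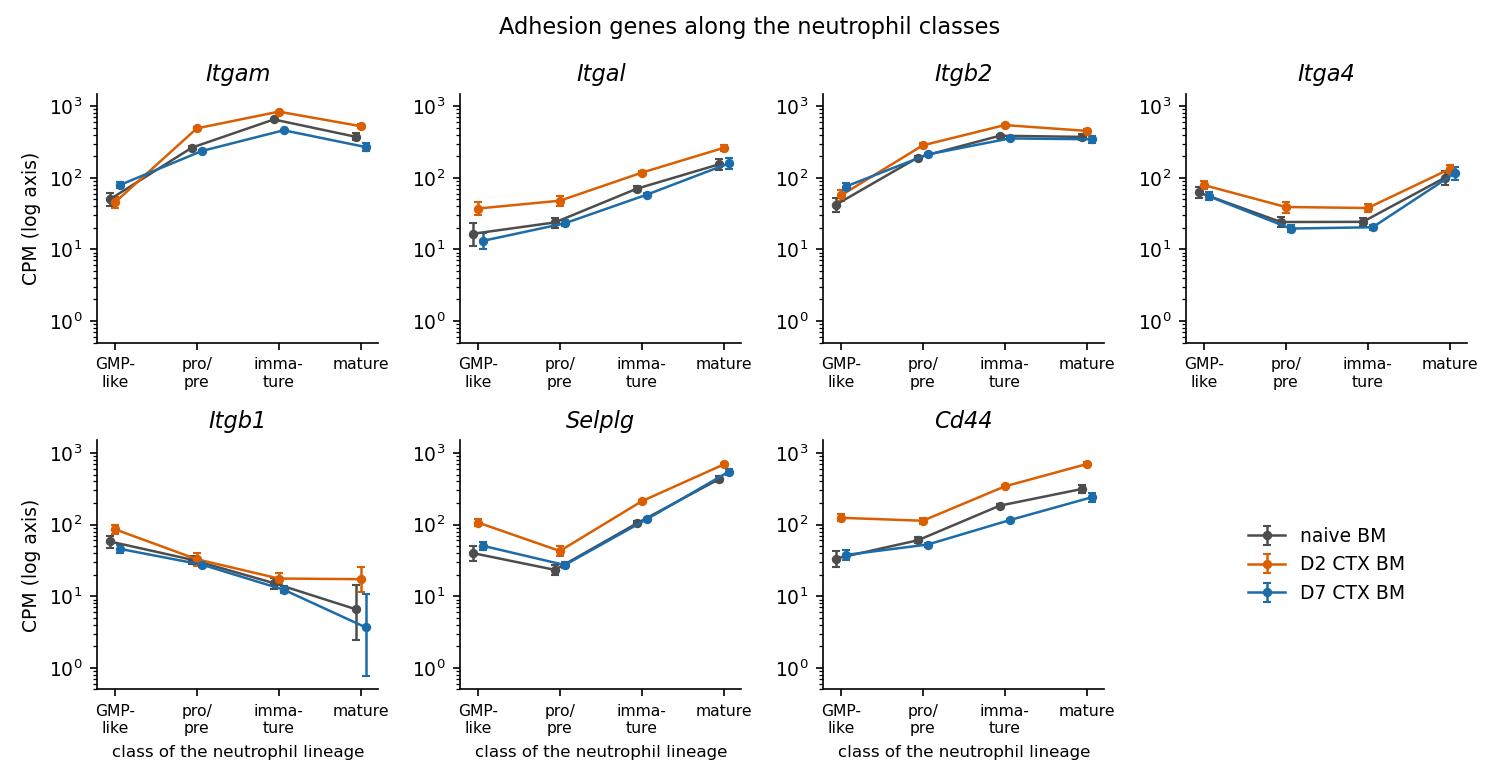
Level of each gene in CPM (log axis, the same in each panel) in the 4 classes of the neutrophil lineage, with 1 line for each whole BM library and bars for the exact 95% counting interval. Itgam peaks in immature cells, Itgb1 declines to 6.58 CPM in naive mature cells, Selplg dips at the pro/pre class, and the D2 CTX line lies highest for Cd44 in each class.

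In whole BM the members differed in both size and direction after CTX. Fewer cells of a type and less RNA per cell cannot be told apart in these sums over a library. Itgam stood at 196 CPM (192 to 200.4) in naive BM, 317 (311 to 323) at D2 and 299 (295 to 303) at D7. Its partner Itgb2 stood at 145, 236 and 249 CPM, and Itgal at 38.7 (36.9 to 40.5), 85.3 (82.3 to 88.5) and 45.6 CPM (44.0 to 47.3). Both alpha partners of Itgb2 among the members were thus highest at D2, and Itgb2 was higher at D7 than at D2.

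Itga4 stood at 148 CPM (145 to 152) in naive BM and 149 (145 to 154) at D2, which overlapped, and at 57.5 CPM (55.7 to 59.4) at D7. Itgb1 followed with 65.5, 71.8 and 35.7 CPM. Selplg stood at 114 CPM before CTX, 206 at D2 and 118 at D7, and Cd44 at 90.2, 203 and 88.3 CPM. The selectin ligand and the hyaluronan receptor were therefore high at D2 and at D7 overlapped their naive intervals, while the 2 subunits of VLA-4 were low at D7.

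**Figure D3:**
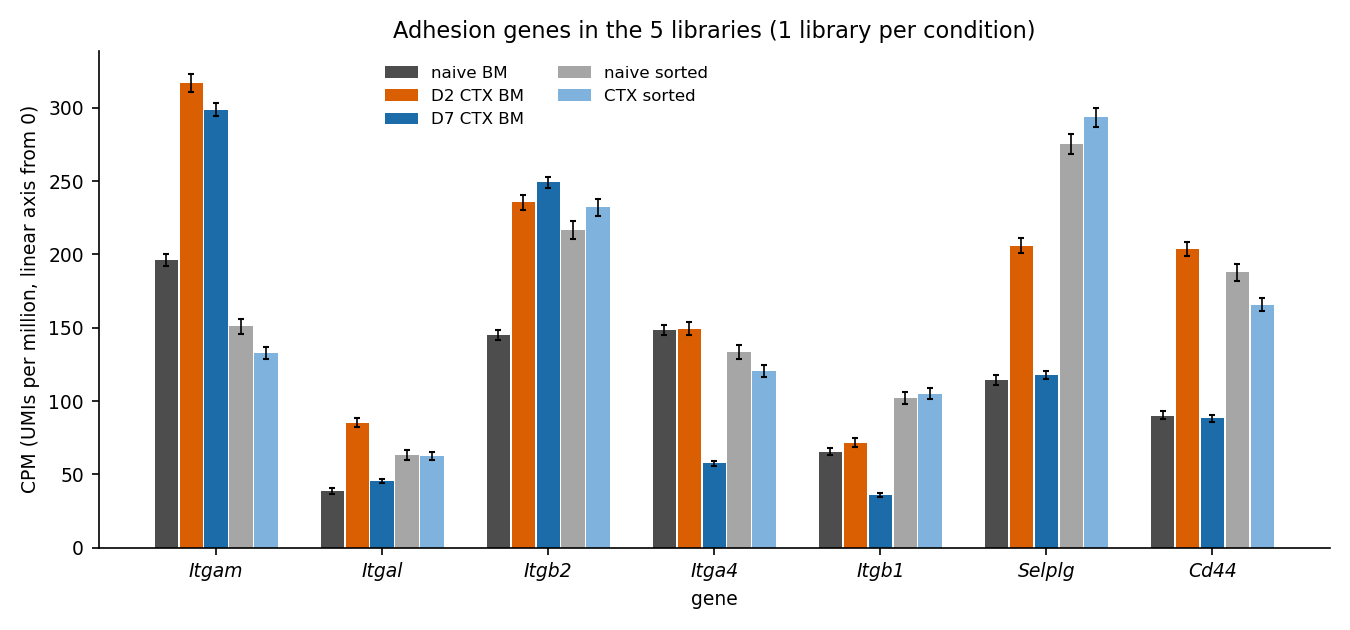
Bars give the CPM of each gene in the 5 libraries (linear axis from 0, 1 library per condition), and the error bars are exact Poisson 95% intervals. Selplg and Cd44 stand out at D2 among the whole BM libraries (206 and 203 CPM), and Itga4 and Itgb1 are lowest at D7 (57.5 and 35.7 CPM).

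At D2 the log2 ratio to naive was 1.17 for Cd44 (1.12 to 1.23), 1.14 for Itgal (1.06 to 1.23), 0.85 for Selplg, 0.70 for Itgb2, 0.69 for Itgam, 0.13 for Itgb1 and 0.01 for Itga4. With 1 CPM added to both libraries, Cd44 (1.16) and Itgal (1.12) were at least 1 log2 unit higher and no member was as much lower. Of the 6221 genes compared, 5.40% were at least 1 log2 unit higher and 3.21% lower. The median over these genes was 0.17, and relative to it Cd44 stood at 0.998 and Itgal at 0.96, both under 1 log2 unit, while Itgb1 (-0.04) and Itga4 (-0.16) changed sign.

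At D7 the log2 ratio to naive was -1.37 for Itga4 (-1.42 to -1.31), -0.88 for Itgb1 (-0.95 to -0.80), 0.78 for Itgb2 (0.74 to 0.82), 0.61 for Itgam, 0.24 for Itgal, 0.04 for Selplg and -0.03 for Cd44. Itga4 was the 1 member at least 1 log2 unit lower with 1 CPM added, in a comparison where 22.3% of 5608 genes were as much lower and 1.41% higher. The median gene was at -0.58, and relative to it Itga4 stood at -0.77, Itgb1 at -0.28, Cd44 at 0.55, Selplg at 0.62, Itgal at 0.81, Itgam at 1.18 and Itgb2 at 1.36. Scaling thus moved the member past 1 log2 unit from Itga4 to Itgam and Itgb2, and it turned the sign of Cd44. The mean over cells of each cell's CPM gave the opposite sign to the summed UMIs for Selplg (-0.14) and Itgal (-0.17).

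The whole BM values were split into the share of each class and the level within it, over the classes of at least 50 cells in both libraries and 1 group of all other cells. With the classes held at their naive share of UMIs, the D7 ratio of Itga4 was -0.42 against -1.35 without, and that of Itgb1 -0.40 against -0.86. With levels held at naive and the shares of D7 instead, Itga4 stood at -0.92 and Itgb1 at -0.58. Naive Itga4 UMIs came from erythroid-like (25.3%), monocyte-like (14.0%), pro-B/large pre-B-like (10.9%) and small pre-B-like cells (9.49%), and at D7 erythroid-like cells were 0.217% of cells against 5.80% in naive, and small pre-B-like cells 0.676% against 14.9%. The 18 erythroid-like cells of D7 CTX BM held 229 CPM of Itga4 (180 to 288), against 280 in naive. At D7 only 8 classes entered, and erythroid-, T-, NK- and B-like cells, which were under 50 at D7, stood together in the group of other cells, so that a loss of one of them counted there as a difference in level. In this split the Itga4 ratio was -0.92 with the D7 shares alone and -0.42 with the D7 levels alone, and the cause was not tested.

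For Itgam the D7 ratio with naive shares was 0.06 against 0.60 in whole BM, and 0.91 with naive levels. Itgb2 kept 0.33 of 0.78 log2 units. Selplg and Cd44, which were close to 0 in whole BM at D7, stood at 0.34 and -0.27 with naive shares. At D2, Cd44 stood at 0.87, Itgal at 0.80, Itgam at 0.56, Selplg at 0.55 and Itgb2 at 0.51 with naive shares. With naive levels these 5 stood at 0.21 to 0.41. For 5 of the 7 members at D2 and 5 of 7 at D7 the ratio was nearer to 0 with naive shares than in whole BM. The share of all genes that moved nearer to 0 is not given, so these counts do not set the members apart from other genes.

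**Figure D4:**
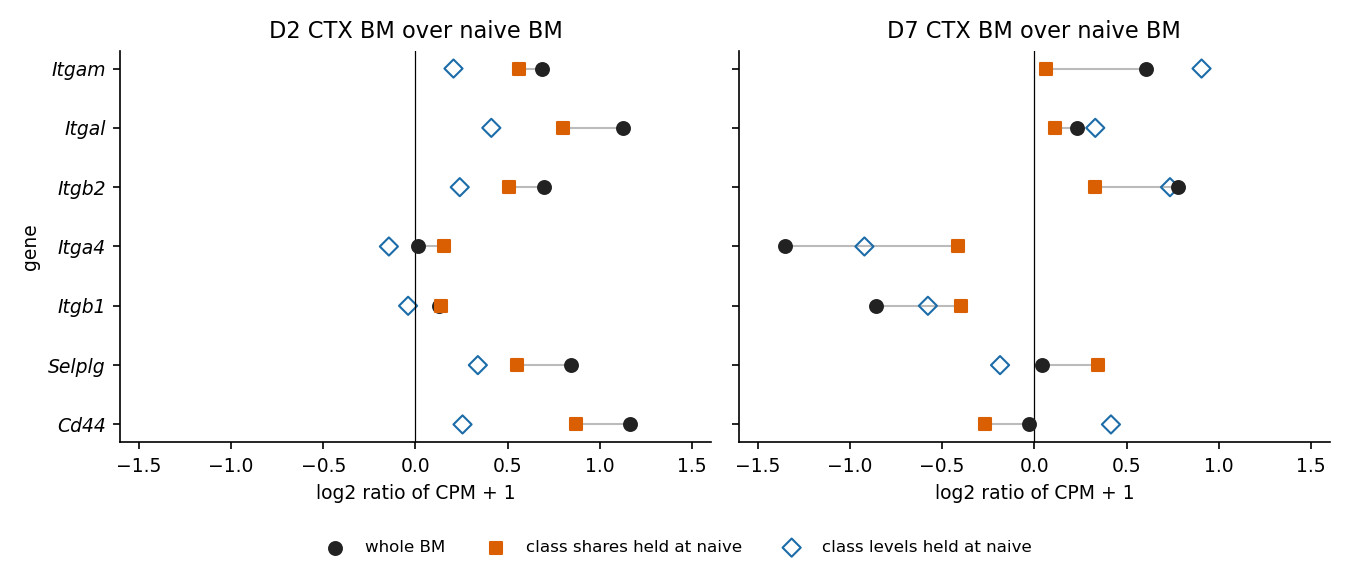
The log2 ratio to naive BM with 1 CPM added is shown for whole BM (black), with class shares held at naive (orange) and with class levels held at naive (open diamonds), for D2 and D7 CTX. The D7 ratio of Itga4 moves from -1.35 to -0.42 and that of Itgam from 0.60 to 0.06 when shares are held, while Cd44 at D2 moves from 1.16 to 0.87.

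Within classes, D2 CTX levels were mostly above naive. Of the 56 pairs of a member and a class that passed the filter on low values (98 pairs in all), the interval lay above 0 in 44 and below 0 in 2, where over all genes 35.6% of 34613 gene and class pairs lay above 0 and 21.6% below. Of the 56, 7 were at least 1 log2 unit higher and none lower, with 4.53% and 3.56% of all pairs past this limit. The median gene of a class lay between -0.38 and 0.38 at D2, and relative to it 3 of the 7 pairs stayed past 1 log2 unit. With the mean over cells of each cell's CPM, over D2 and D7 together, 6 pairs were at least 1 log2 unit higher and 1 lower, and 5 of the 7 stayed past this limit. The 3 past it relative to the median gene were Selplg and Cd44 in GMP-like cells and Selplg in pro-B/large pre-B-like cells.

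Cd44 was above naive in 8 of the 8 classes in which it passed the filter. In mature neutrophil-like cells it stood at 314 CPM in naive BM and 699 (658 to 743) at D2, a log2 ratio of 1.16 (0.97 to 1.35), and in immature neutrophil-like cells at 184 and 341 CPM. B-like cells held 37.0 and 77.5 CPM. GMP-like cells held 33.6 CPM of Cd44 in naive BM and 124 (111 to 139) at D2, a log2 ratio of 1.89 (1.5 to 2.3). These 64 GMP-like cells of D2 had a median of 40048.5 UMIs, against 11536 in the 157 of naive BM, and the summed level of 19 neutrophil markers was 2524 CPM against 7402, although 13 of the 19 were higher at D2. The GMP-like cells compared thus differed in depth and in neutrophil markers, whose part in the Cd44 ratio was not tested.

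Selplg was also above naive in neutrophil-like cells at D2, with a log2 ratio of 1.03 in immature (0.91 to 1.15), 0.68 in mature (0.51 to 0.86), 0.88 in pro/pre-neutrophil-like and 1.42 in GMP-like cells. In monocyte-like cells it differed from Cd44: Selplg stood at 296 CPM in naive BM and 293 at D2 (-0.01, -0.16 to 0.13), while Cd44 stood at 176 and 276 CPM (0.65, 0.49 to 0.81). Pro-B/large pre-B-like cells held 53.9 CPM of Selplg in naive BM and 170 (140 to 205) at D2, and 42.5 and 87.4 CPM of Itgb1. There were 98 such cells at D2 and 342 in naive BM, and 16 of 19 neutrophil markers were higher in them at D2, whose part in these ratios was not tested.

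Itgam was higher at D2 in pro/pre-neutrophil-like (264 and 489 CPM), immature (651 and 838) and mature neutrophil-like (373 and 524) and in monocyte-like cells (218 and 411), with log2 ratios of 0.89, 0.36, 0.49 and 0.92. GMP-like cells did not differ beyond counting error, with 50.1 CPM in naive BM and 45.3 at D2. In monocyte-like cells the summed neutrophil markers stood at 2039 CPM in naive BM and 3137 at D2 with 15 of 19 higher, and their part in the Itgam ratio was not tested. Lymphoid and dendritic classes that held little Itgam in naive BM also held more at D2, such as pro-B/large pre-B-like cells with 4.27 and 29.1 CPM and pDC-like cells with 8.01 and 34.4 CPM. These 2 pairs did not pass the filter on low values. In the same classes S100a8, the most abundant neutrophil transcript, stood at 796 and 6409 CPM and at 1850 and 7700 CPM, and the summed level of the 19 markers was 2120 and 2612 CPM in pro-B/large pre-B-like and 1135 and 2870 CPM in pDC-like cells (15 of 19 higher), with 1 marker at 0 in each at D2. The part of free neutrophil RNA in the Itgam of these classes was not tested.

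Itga4 and Itgb1 were the members with a class below naive at D2. Itga4 stood at 249 CPM in naive and 189 (171 to 209) in D2 monocyte-like cells, a log2 ratio of -0.39 (-0.57 to -0.22), while it was higher in small pre-B-like (181 and 278 CPM), pro-B/large pre-B-like (176 and 271) and immature neutrophil-like cells (24.2 and 37.8). Monocyte-like cells of D2 thus held more Itgam and less Itga4 than those of naive BM. Itgb1 stood at 332 CPM in naive and 216 (187 to 248) in D2 T-like cells, a log2 ratio of -0.62, and at 103 and 137 CPM in monocyte-like cells. Itgal and Itgb2 lay above naive in each of the 6 and 7 classes in which they passed the filter, but relative to the median gene of the class Itgb2 stood at -0.10 in mature neutrophil-like cells.

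At D7 the classes lay close to naive. Of 40 pairs that passed the filter (56 in all), the interval lay above 0 in 6 and below 0 in 13, beside 10.6% and 27.3% of 25028 gene and class pairs over all genes. None of the 40 was 1 log2 unit or more away from naive, where 0.483% of all pairs were as much higher and 1.09% lower. The share of member pairs below 0 was thus close to that of all genes. Cd44 was lower in 4 classes: immature neutrophil-like cells held 184 CPM in naive BM and 115 (111 to 119.5) at D7, a log2 ratio of -0.67 (-0.76 to -0.58), mature cells 314 and 240 CPM, monocyte-like cells 176 and 137, and pro/pre-neutrophil-like cells 60.4 and 52.7. Cd44 was therefore above naive at D2 and below it at D7 in these 4 classes, in 2 comparisons that share the naive library. The median gene was also below naive at D7 in these classes. It stood at -0.22 in immature, -0.12 in pro/pre-, -0.06 in monocyte-like and -0.04 in mature neutrophil-like cells. The levels and ratios given here for D7 classes are not relative to it.

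Itgam at D7 was lower in immature (651 and 460 CPM, log2 ratio -0.50, -0.55 to -0.45), mature (373 and 268), pro/pre-neutrophil-like (264 and 236) and monocyte-like cells (218 and 188), and higher in GMP-like cells (50.1 and 79.1 CPM, 0.66, 0.33 to 1.003). Whole BM held more Itgam at D7 although the 4 classes with the highest naive level each held less. Immature neutrophil-like cells were 49.6% of D7 CTX cells against 26.5% of naive cells, and pro/pre-neutrophil-like cells 18.9% against 7.88%. Itgb2 was also higher in GMP-like cells (42.1 and 75.4 CPM). Summed neutrophil markers in GMP-like cells stood at 7402 CPM in naive BM and 11850 at D7 with 14 of 19 higher, and their part in the Itgam and Itgb2 ratios was not tested. Selplg was above naive in immature (0.19) and mature neutrophil-like cells (0.34, 0.14 to 0.54) and not below it in any of the 8 classes.

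Sorted CD11b+Ly6Chi monocytes of CTX and naive mice were close to each other in all 7 genes. Selplg stood at 275 CPM in naive and 293 in CTX monocytes, Itgb2 at 217 and 232, Cd44 at 188 and 166, Itgam at 151 and 133, Itga4 at 134 and 120, Itgb1 at 102 and 105, and Itgal at 63.2 and 62.6. The log2 ratios ran from -0.19 for Itgam (-0.26 to -0.12) and -0.18 for Cd44 to 0.10 for Itgb2 (0.04 to 0.15). None of the 7 was 1 log2 unit away, and 0.144% of 5549 genes were as much higher and 0.811% lower. Cells in the monocyte gate made up 94.4% of the naive and 91.4% of the CTX sorted cells, and within the gate the ratios ran from -0.21 for Itgam to 0.11 for Selplg and Itgb2.

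Sorted naive monocytes were then set against the monocyte-like cells gated from naive whole BM. The sets were chosen by surface protein and by marker genes, had medians of 10299 and 6458 UMIs, and may hold different cells. Itga4 stood at 134 CPM in sorted and 249 in gated cells, a log2 ratio of -0.90 (-1.0 to -0.79), and Itgam, the gene of the sorting antigen, at 151 and 218 CPM (-0.53, -0.64 to -0.42). The other 5 members lay between -0.12 and 0.09. No member was 1 log2 unit away, which 3.44% of 5807 genes were. The size of the Itga4 gap between these sets of cells, both from naive mice, exceeded that of every CTX to naive ratio in sorted monocytes.

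Within the sorted libraries, cells with a UMI of the chemokine receptor gene Cxcr4 but none of Cx3cr1 were compared with cells that had Cx3cr1 but no Cxcr4, the pair of surface markers that the study used to tell monocyte subsets apart. This split was chosen after the data had been seen. Naive monocytes held 474 cells of the Cxcr4 kind (median 13772.5 UMIs) and 491 of the Cx3cr1 kind (9291), and CTX monocytes 789 (13336) and 550 (8667). Itga4 stood at 106 and 173 CPM in naive monocytes and at 88.4 and 177 CPM in CTX monocytes, log2 ratios of -0.70 (-0.84 to -0.56) and -1.002 (-1.13 to -0.87). Itgam stood at 113 and 176 CPM in naive and at 104 and 184 in CTX monocytes, log2 ratios of -0.64 and -0.83. All 3 alpha subunits among the members were thus lower in the Cxcr4 kind in both libraries.

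Itgal followed with log2 ratios of -0.72 in naive and -0.62 in CTX monocytes. Itgb2 was lower by a smaller amount (-0.28 and -0.49), as was Cd44 (-0.22 and -0.34). Itgb1 stood at -0.23 (-0.39 to -0.06) in naive and -0.11 (-0.25 to 0.04) in CTX monocytes. Selplg was the exception, higher in the Cxcr4 kind, with 298 and 262 CPM in naive (0.19, 0.08 to 0.29) and 314 and 285 CPM in CTX monocytes (0.14, 0.05 to 0.23). The Cxcr4 kind also held more of the granule genes of neutrophil progenitors, such as Elane with 700 and 107 CPM in naive and 923 and 124 CPM in CTX monocytes. Cells with a UMI of neither gene held 429 CPM of Elane in naive and 1231 CPM in CTX monocytes, the latter above the Cxcr4 kind. Cells of the GMP gate were not left out of these groups. They held 2956 Elane UMIs in the naive library (21 cells) and 12554 in the CTX library (71 cells). All monocyte-like cells together held 5363 and 8521 UMIs, or 253 and 325 CPM. The part of GMP-like cells in the Elane and member levels of each group was not tested.

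**Figure D5:**
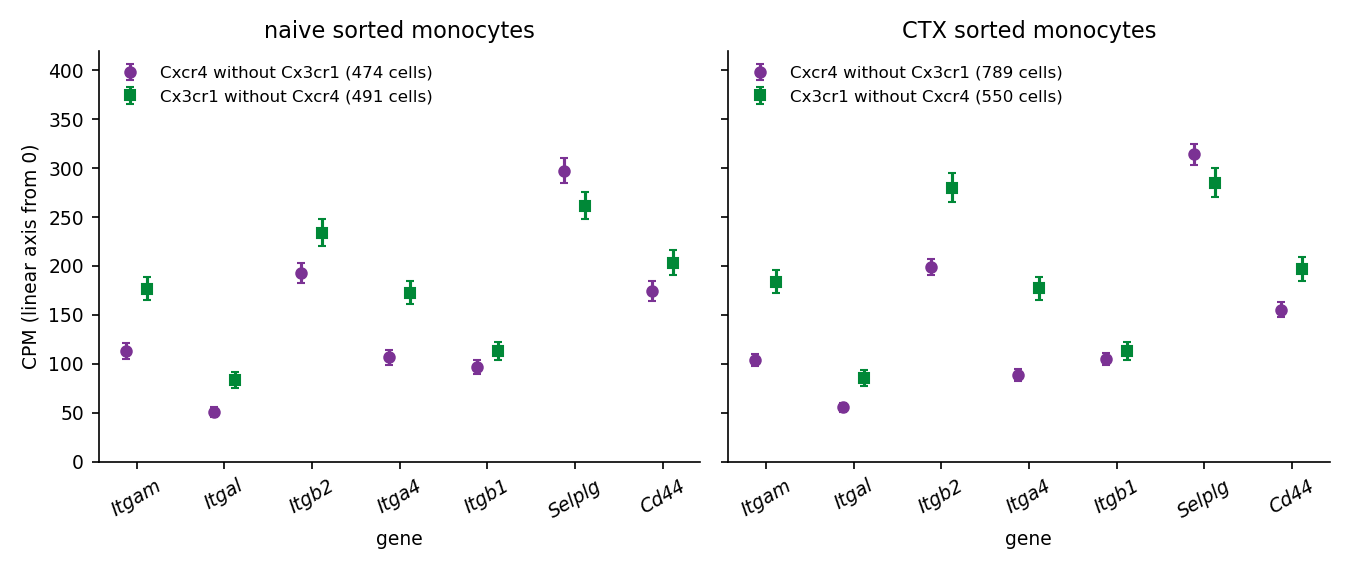
Points give the CPM of each gene (linear axis from 0) in sorted monocytes with a UMI of Cxcr4 and none of Cx3cr1 (circles) or the reverse (squares), with exact Poisson 95% intervals, in naive (left) and CTX (right) monocytes. Itga4 lies at 106 against 173 CPM in naive and 88.4 against 177 in CTX monocytes, while Selplg lies the other way.

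A few sorted cells fell in the GMP gate, 21 of the naive (1.11%) and 71 of the CTX library (2.77%). They held 6161 and 7322 CPM of Mpo, against 112 and 133 in monocyte-like cells. Itgam stood at 12.7 CPM (4.64 to 27.6) in the 21 naive and 32.5 (22.9 to 44.7) in the 71 CTX cells, against 154 and 133 in monocyte-like cells, although the sort was on CD11b protein. Itgb2 was lower as well, at 37.97 and 89.5 CPM against 221 and 238, while Itgb1 differed least in the CTX library, at 74.5 against 107 CPM (-0.52, -0.85 to -0.21).

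Other genes of the adhesion pathway were followed in a list of 102 genes in 8 roles, from partner subunits and ligands to activators and sheddases. At D2, 60 passed the filter in whole BM, of which 5 (8.33%) were at least 1 log2 unit higher and 1 (1.67%) lower. Over all genes 5.40% were as much higher and 3.21% lower. The median of the list was 0.46 against 0.17 over all genes. The 5 were Itga2b (5.95 and 21.9 CPM) and Itgb3 (10.96 and 23.2), the 2 subunits of the platelet integrin, the selectin glycan enzyme Gcnt1 (18.2 and 41.6), the VLA-4 ligand Vcam1 (21.1 and 49.6) and the protease gene Mmp9 (356 and 726), and the 1 was the red cell adhesion gene Icam4 (36.1 and 4.48). Of these, Itga2b, Itgb3 and Gcnt1 reached the filter's 20 CPM only at D2, and Icam4 only in naive BM. The same filter was used for all genes. Among classes of at least 50 cells, Vcam1 had its highest level in macrophage-like cells, at 5794 CPM before CTX and 4813 at D2.

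At D7, 55 of the list passed, none was 1 log2 unit higher and 7 (12.7%) were lower. Over all genes 1.41% were as much higher and 22.3% lower. The median of the list was -0.08 against -0.58 over all genes. The 7 were Icam4 (36.1 and 1.56 CPM), Cd74 (412 and 95.2), the glycan enzymes St3gal6 (32.8 and 8.36) and C1galt1 (106 and 31.3), the integrin activators Rapgef1 (23.9 and 10.0) and Cyth1 (27.1 and 12.0), and Cd24a (874 and 409), while the sheddase gene Adam10 (88.3 and 43.7) lay at the cutoff without passing it. Icam4, St3gal6, Rapgef1 and Cyth1 reached the filter's 20 CPM only in naive BM. In sorted monocytes 53 passed and 1 (1.89%) was lower, where 0.811% of all genes were. This was Cd74 (116 and 38.9 CPM), the invariant chain, which forms a receptor complex with CD44. The activators that link the Itgb2 and Itgb1 tails to actin stayed within 1 log2 unit: Tln1 stood at 302, 373 and 302 CPM before CTX, at D2 and at D7, and Fermt3 at 99.8, 142 and 113 CPM. Itgb7, the other beta partner of Itga4, stood at 43.7, 53.6 and 37.2 CPM in whole BM and at 367 and 337 CPM in naive and CTX sorted monocytes. Icam1, a ligand of Mac-1 and LFA-1, stood at 7.62, 17.1 and 4.28 CPM in whole BM, below the filter, and at 25.1 and 15.7 CPM in the sorted cells.

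Among monocyte-like cells of naive BM, Itgb7 stood at 288 CPM, beside 1.40 CPM in small pre-B-like, 5.18 in erythroid-like and 5.73 in immature neutrophil-like cells. T-like (256 CPM), pDC-like (161), basophil/mast-like (145), NK-like (112) and B-like cells (67.2) also held Itgb7. These classes and monocyte-like cells thus held both beta partners of Itga4, while erythroid-like cells held Itgb1 with Itgb7 under 10 CPM.

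Shares of cells with at least 1 UMI were compared after thinning each cell to 1000 UMIs, since depth differed between libraries. Cd44 was found in 10.7% of naive cells, 20.6% at D2 and 10.1% at D7, against 38.2%, 51.6% and 47.9% without thinning. Itga4 was found in 12.5%, 14.7% and 5.48% of thinned cells, and Itgam in 19.8%, 25.2% and 27.2%. The share with Itgam in erythroid-like cells of naive BM was 0.796% at 1000 UMIs and 5.34% without thinning (median 13831.5 UMIs), and 46.9% and 86.4% in immature neutrophil-like cells (median 3973 UMIs). The D2 to naive difference in Cd44 and the D7 to naive difference in Itga4 were thus seen at equal depth, and the higher unthinned share of Cd44 at D7 was not. For Cd44 the share in erythroid-like cells of naive BM was 2.39% at 1000 UMIs, and for Itga4 that in immature neutrophil-like cells was 2.22%. In thinning, cells under 1000 UMIs were left out, 285 of the naive, 599 of the D2 and 73 of the D7 library.

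Across the 39 pairs of a class and a library with at least 50 cells, the gene with the level most like that of Itgam on the log2(CPM + 1) scale was Mcemp1 (Pearson's r = 0.936), followed by Cd177 (0.932) and Ckap4 (0.910), among 10276 genes. Itgb2 was most like Apobr (0.938), Ptpre and Zyx, Itgal was most like Arhgap9 (0.901), Zyx and Gramd1b, and Cd44 was most like Pira2 (0.902), Dennd5a and Chp1. Genes close to Selplg included Gng2 (0.820) and Elf4 (0.813). Itga4 was most like Zbtb44 (0.906), Fbxw7 and Apobec3, and genes close to Itgb1 included Tusc3 (0.867) and Rplp1 (0.836). Among the members themselves Itgam and Itgb2 were the closest pair (0.821), Itgal and Itgb2 stood at 0.766, and the VLA-4 subunits Itga4 and Itgb1 at 0.320. Points of 1 library share its depth and free RNA and points of 1 class share its markers, so these values describe the 39 points.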

How the data were processed

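The 5 libraries of 10x Genomics 3′ single-cell RNA were analysed. The authors deposited counts of UMIs per gene and barcode, not normalized, made with Cell Ranger 3.1 on mm10 per the submitters' processing notes. The study's methods also name Cell Ranger aggregation. Cells with at least 200 genes and under 20% mitochondrial UMIs were kept, as in the study's methods.

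A cell's class was that with the highest mean of scaled marker levels, at a score of at least 0.3 and a lead of at least 0.03, over 21 classes. No doublet caller was run, and cells with close scores stayed unassigned. A gene entered a comparison with 200 or more UMIs in the 2 groups together and 20 CPM in either, and 1 CPM was added. Intervals are exact Poisson (levels) and exact conditional (ratios) at 95%. The cutoffs of 1 log2 unit and 50 cells, the alternatives given in the closing section and the naming of genes (all members, up to 5 list genes past 1 log2 unit at each end, Icam1, Vcam1, Fermt3, Tln1, Itgb7 and the 3 genes most like each member, of which some are not reported here) were set with the analysis plan. The members and lists were chosen with earlier results of these data known. Cyth1, Cd24a, Adam10 and genes outside the list, such as S100a8 and Elane, were named after their values were seen. Python 3.11.15, numpy 2.4.6, scipy 1.17.1, pandas 2.3.3 and matplotlib 3.10.9 were used. The comparison of genes between libraries and the ratio intervals were tested on simulated library sums. The marker classes, the split into shares and levels and the thinning were not part of this test.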

Additional observations from a re-analysis of the deposited data

Results flagged for a closer look

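For 5 genes and times, levels within 2 cell classes lay on opposite sides of naive BM with both counting intervals off 0. With 1 library per condition the difference between the classes was not tested. The share of all genes that met the same rule is not given. Over all gene and class pairs, 35.6% lay above 0 and 21.6% below at D2, and 10.6% and 27.3% at D7. For each gene and time the class farthest from naive on each side is named. At D2 the log2 ratio of Itga4 was 0.70 in pro/pre-neutrophil-like and -0.39 in monocyte-like cells, and that of Itgb1 was 1.04 in pro-B/large pre-B-like and -0.62 in T-like cells. At D7 Itgam stood at 0.66 in GMP-like and -0.50 in immature neutrophil-like cells, and Itgb2 at 0.84 and -0.12 in the same classes, the latter 0.09 relative to the median gene of that class. Itga4 at D7 stood at 0.75 in small pre-B-like cells, of which 56 were found, and -0.30 in pro/pre-neutrophil-like cells.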

How the results depend on the processing

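The 53 alternatives to counts of genes left 43 within 1.5 times the main value. Scaled by the median gene ratio, 0 members were past 1 log2 unit at D2 and 2 at D7 (main 2 and 1), with 3 and 11 pathway genes (main 6 and 7), and 3 member and class pairs (main 7, a choice made after seeing the data). Without the 20 highest genes in the total, 2 members were past 1 log2 unit at D7 (Itgam 1.04, Itgb2 1.21) and 2 pathway genes in sorted monocytes (main 1). With no filter on low values, 11 pathway genes at D7 and 3 in sorted monocytes were past 1, and the mean over cells gave 2 in sorted monocytes. The cause was not tested. Of 252 single values, 143 stayed within their interval or limit, 109 moved and none that was past 1 log2 unit changed sign. Of the members, 6 kept their highest class of naive BM under the mean over cells, the exception being Selplg (NK-like, 613 CPM). No paired analysis was possible because each condition was 1 library, and leaving out a library would end its comparison. Depth limits Itgb1 in mature neutrophil-like and all members in macrophage-like cells.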
